A study of Mus musculus with 20 samples.

Results

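Lysosomal hydrolases, their membrane proteins, subunits of the vacuolar proton pump (V-ATPase) and the transcription factors of the TFEB family were examined in bone marrow-derived macrophages (BMDMs) exposed to fractions of inflamed airway fluid. From a list of 40 mouse genes, 38 had a mean of at least 3 CPM (a gene's count scaled by the total of its library) over the 20 libraries and form the lysosomal set described here, out of 10639 genes that reached this level. Tfeb, at a mean of 2.60 CPM, and Ctsf, at 1.90 CPM, fell below the limit, and Smpd1, at 3.12 CPM, lay just above it.

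The BMDMs of all 20 libraries were wild-type, came from female C57BL/6J mice, and were used on day 7 of a culture grown in fibroblast-conditioned medium. Each of 5 groups held 4 libraries: a PBS control, RNY1+/+ EVFx, RNY1-/- EVFx, RNY1+/+ ProteinFx and RNY1-/- ProteinFx. EVFx and ProteinFx are the extracellular vesicle-enriched and the protein-enriched size-exclusion fractions of bronchoalveolar lavage fluid from ovalbumin-challenged mice, and the genotype is that of the mice that gave the fluid, not that of the macrophages. RNY1 encodes a small noncoding Y RNA, which a CRISPR deletion removed in the RNY1-/- strain. Mice were 7 to 16 weeks old, and the fractions had been kept cold for 5 days before the cells received them in medium without serum. EVFx doses were matched between genotypes by particle number (3.5 in units of 1e7 particles per µL) and ProteinFx doses by protein mass (0.75 µg per µL), so the doses of the fractions were not matched to each other. Whether libraries sharing a treatment stemmed from different mice, fluid pools or wells is not given in the labels, so p-values measure only the spread between these libraries, which may be technical.

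Lysosomes are acidic organelles in which macrophages break down what they engulf. Soluble hydrolases reach them through sorting receptors, the V-ATPase pumps protons into the lumen, and heavily glycosylated membrane proteins such as LAMP1 and LAMP2 line the membrane. TFEB and TFE3 are basic helix-loop-helix factors that, when mTORC1 is inactive, enter the nucleus and raise transcription of many lysosomal genes through an E-box in their promoters.

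That E-box is shown here because, of the factors that read it, Tfe3 belongs to the set and Tfeb to the list it came from. Promoter sequences from RefSeq (build GRCm38.p6, 250 bases before to 50 bases after the start of the gene) were found for 32 of the 38 genes, and Asah1, Atp6v0d2, Atp6v1b2, Atp6v1h, Ctsb and Ctsh were not matched. The 6-base E-box CACGTG, which reads the same on both strands, was present in at least 1 promoter of 10 of the 32 genes (31.2%), against 8.09% of the 27025 genes in the table. Its longer form TCACGTGA, which contains the shorter one, was present in 5 of the 32 (15.6%), against 1.12% of all genes. A match is a run of letters and not a measured binding site. The windows below run 5′ to 3′ on the strand of the gene, with the E-box in capitals, and were chosen as the 5 genes with the longer form, the gene with the most E-boxes and a cathepsin that moved in opposite directions with the fractions.
Ctsa, chr2:164833749-164833778, + strand: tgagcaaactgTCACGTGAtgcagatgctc
Ctsa, chr2:164833766-164833795, + strand: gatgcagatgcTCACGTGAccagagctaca
Ctsd, chr7:142387908-142387937, - strand: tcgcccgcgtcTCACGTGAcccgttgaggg
Mcoln1, chr8:3500462-3500491, + strand: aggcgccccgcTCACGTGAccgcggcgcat
Atp6v0d1, chr8:105566050-105566079, - strand: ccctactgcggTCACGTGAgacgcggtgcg
Atp6v1a, chr16:44139373-44139402, - strand: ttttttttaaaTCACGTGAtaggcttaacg
Lamp1, chr8:13159088-13159117, + strand: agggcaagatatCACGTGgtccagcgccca
Ctsl, chr13:64370739-64370768, - strand: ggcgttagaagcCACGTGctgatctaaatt
The Ctsa windows overlap and place an E-box on either side of the start of the gene. Lamp1 carried 4 copies of CACGTG within this stretch of its promoter, of which the copy farthest upstream is printed. Glb1, Gaa and Lgmn were the other genes with the shorter form.

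Libraries held 2510005 to 8277366 counts (median 5456425), so 3 counts, taken as the floor of detection, were worth 0.362 to 1.20 CPM. Summed macrophage markers reached 8051 to 11721 CPM in every library, and all 8 were above the floor in each group. All 6 lymphocyte markers and all 4 mast cell and basophil markers were at or under the floor in every group. Summed neutrophil markers ranged from 163 to 382 CPM and were lowest after RNY1+/+ EVFx (163 to 219.7 CPM). Of the 9, 3 or 4 were at or under the floor in each group. S100a8 and S100a9 made up most of the sum, with group means of 102 to 186 and 59.9 to 130 CPM. Summed eosinophil markers ranged from 1.00 to 2.46 CPM in the EVFx groups, 9.28 to 15.3 in PBS and 13.1 to 21.4 in the ProteinFx groups. Of the 6, 3 to 5 were at or under the floor in each group, and Ccr3 made up most of the sum. Mean Ccr3 was 8.47 CPM in PBS, 0.918 and 1.503 in RNY1+/+ and RNY1-/- EVFx, and 15.9 and 12.9 in RNY1+/+ and RNY1-/- ProteinFx. The 5 fibroblast markers, of which 0 or 1 were at or under the floor in each group, summed to 24.7 to 51.4 CPM in PBS, 22.5 to 39.5 in RNY1+/+ EVFx, 10.8 to 20.9 in RNY1-/- EVFx, 18.6 to 29.0 in RNY1+/+ ProteinFx and 11.6 to 29.0 in RNY1-/- ProteinFx. Their part in the results was not tested. Within the PBS and RNY1-/- ProteinFx groups the libraries split. Libraries 1 and 2 were both above libraries 3 and 4 for 27 of the 38 genes in PBS and for 29 of 38 in RNY1-/- ProteinFx, and both below them for 9 and 6. Over 10301 genes, the Spearman correlation of a library's deviation from the mean with the GC content of the transcripts ran from -0.18 (library 3) to 0.52 in PBS and from -0.51 (library 3) to 0.10 in RNY1-/- ProteinFx. It was 0.24 to 0.50 in RNY1+/+ EVFx, -0.40 to -0.21 in RNY1-/- EVFx and -0.40 to -0.21 in RNY1+/+ ProteinFx. Genes of the set had a median GC content of 52.1%, against 49.8% for all genes tested. The part of these differences in the results was not tested beyond the values given with each comparison.

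More lysosomal genes were called lower than higher after each treatment, compared with PBS, and a small number, led by cathepsins, were higher. For RNY1-/- ProteinFx this did not hold without PBS libraries 1 and 2, or without its own libraries 3 and 4 (4 higher and 3 lower in both cases). Together the 38 genes took 3.62% to 4.70% of the counts in the PBS libraries, 2.59% to 2.96% after RNY1+/+ EVFx, 2.33% to 2.71% after RNY1-/- EVFx, 3.22% to 3.55% after RNY1+/+ ProteinFx and 3.67% to 4.15% after RNY1-/- ProteinFx. Every treated library except those of RNY1-/- ProteinFx was below the lowest PBS library in this share. The heat map of the set by library shows the cathepsins that stood apart from the rest.

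**Figure D1:**
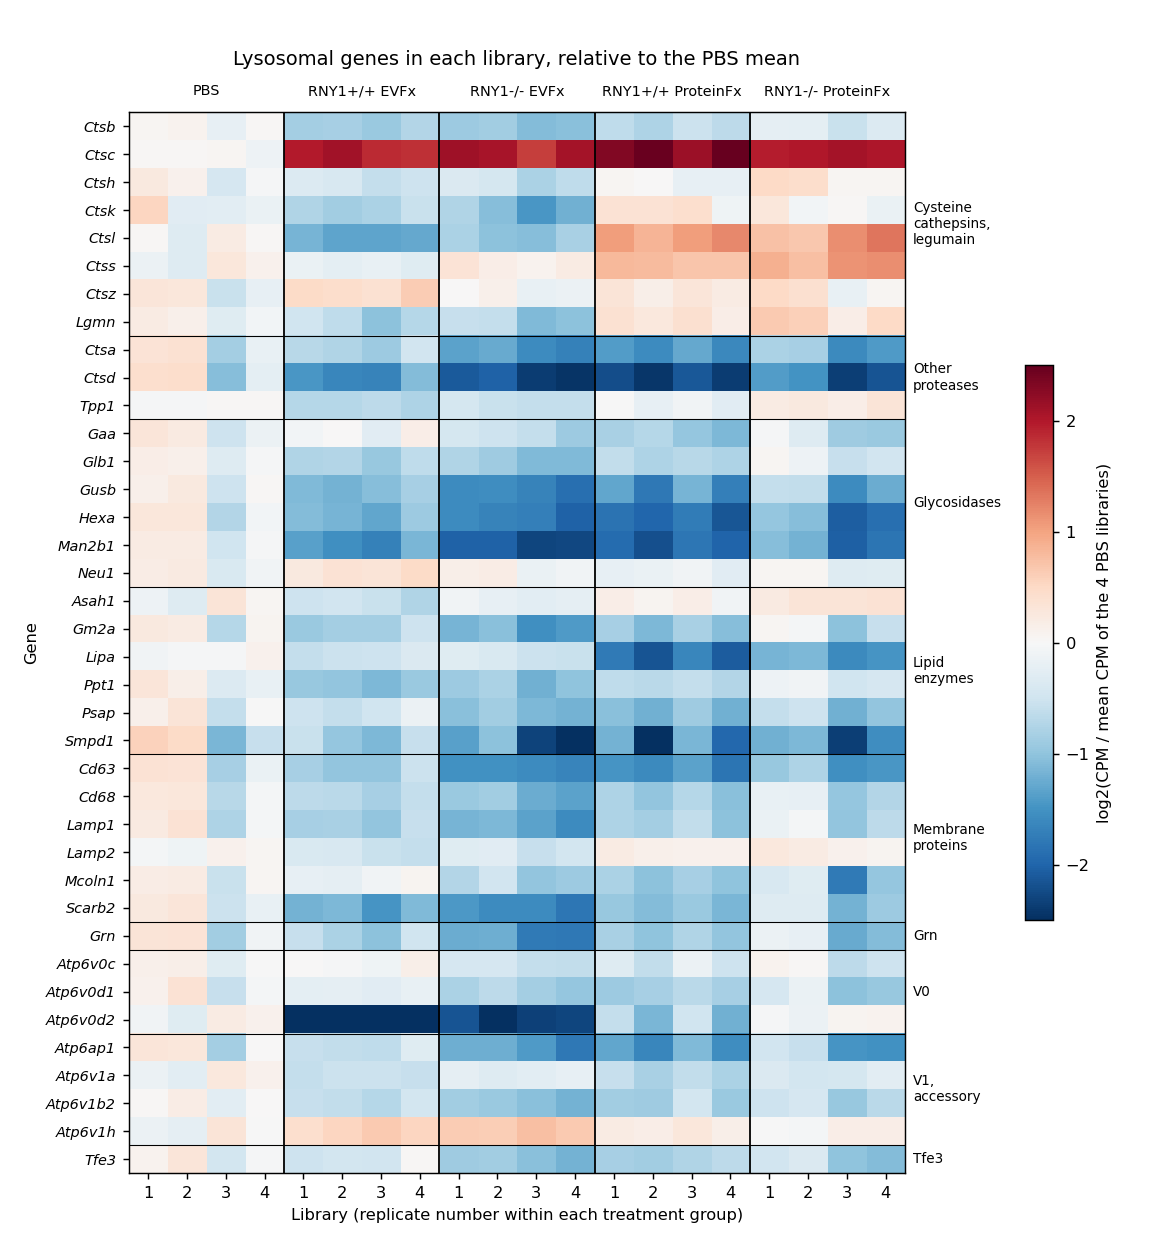
Each row is 1 of the 38 genes, grouped by role, and each column 1 of the 20 libraries; the colour is the log2 ratio of its CPM to the mean of the 4 PBS libraries, cut at -2.5 and 2.5. Ctsc is higher in all treated libraries, Atp6v0d2 is lowest in the 8 EVFx libraries, and Ctsl is low with EVFx and high with ProteinFx.

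Genes were called higher or lower at an adjusted p under 0.05 in edgeR's quasi-likelihood test of 4 against 4 libraries, and called differentially expressed genes (DEGs) when the log2 fold change also passed 1 in size. Fold changes rest on TMM scaling, whereas CPM values are per total count. All 4 comparisons with PBS share the same control libraries and are not independent of each other.

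After RNY1+/+ EVFx, 4 of the 38 genes were higher and 22 lower than in PBS, where 21.7% and 22.8% of the 10797 genes tested were called higher and lower. The median log2 fold change was -0.51 for the set and -0.03 for all genes, and 6 of the 38 were DEGs (1 higher, 5 lower), beside 16.4% of all genes. RNY1-/- EVFx gave 3 higher and 26 lower (27.7% and 30.6% of all genes), a median of -0.73, and 14 DEGs (1 higher, 13 lower) beside 22.5%. RNY1+/+ ProteinFx gave 6 higher and 25 lower (25.9% and 29.3%), a median of -0.63, and 11 DEGs (2 higher, 9 lower) beside 21.4%. RNY1-/- ProteinFx gave 5 higher and 12 lower (16.7% and 19%), a median of -0.33, and 10 DEGs (3 higher, 7 lower) beside 14.3%. With total counts in place of TMM, the median of all genes moved by -0.18, -0.24, -0.17 and -0.06 in these 4 comparisons, and the set's counts became 3 higher and 25 lower, 2 and 31, 3 and 26, and 4 and 13. The lower calls also grew over all genes. These fits called 1653 genes higher and 3496 lower of 10797, and 1913 and 4549 of 10727, for the EVFx. For the ProteinFx they called 1967 and 4100 of 10832, and 1534 and 2317 of 10854.

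These counts changed with the PBS libraries used. Without PBS libraries 1 and 2 the genes of the set were 5 higher and 15 lower, 4 and 22, 6 and 17, and 4 and 3 in the same order. Over all genes the same fits called 2199 higher and 2140 lower of 10653, 2263 and 2240 of 10515, 1893 and 2008 of 10632, and 861 and 594 of 10735. Without PBS libraries 3 and 4 the set gave 4 higher and 26 lower, 4 and 29, 7 and 27, and 4 and 20, beside 3042 and 3127 of 10689, 3790 and 3801 of 10640, 3510 and 3948 of 10756, and 2571 and 2928 of 10813 genes. Without libraries 3 and 4 of RNY1-/- ProteinFx that group had 4 genes higher and 3 lower than PBS (913 and 657 of 10934 genes), and without its libraries 1 and 2 it had 4 and 16 (2157 and 2171 of 10941). Against PBS, 6 genes were lower in all 4 comparisons (Atp6v1b2, Cd63, Ctsd, Gusb, Hexa and Man2b1; without PBS libraries 1 and 2, or without libraries 3 and 4 of RNY1-/- ProteinFx, only Ctsd and Man2b1 of them were still called in RNY1-/- ProteinFx), Ctsc was higher in all 4, 4 genes were called in both directions (Ctsl, Lgmn, Tpp1 and Lamp2), and Atp6v0c and Ctsh in none. How many of all genes showed these patterns was not counted, so they are not shown to be particular to the set.

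**Figure D2:**
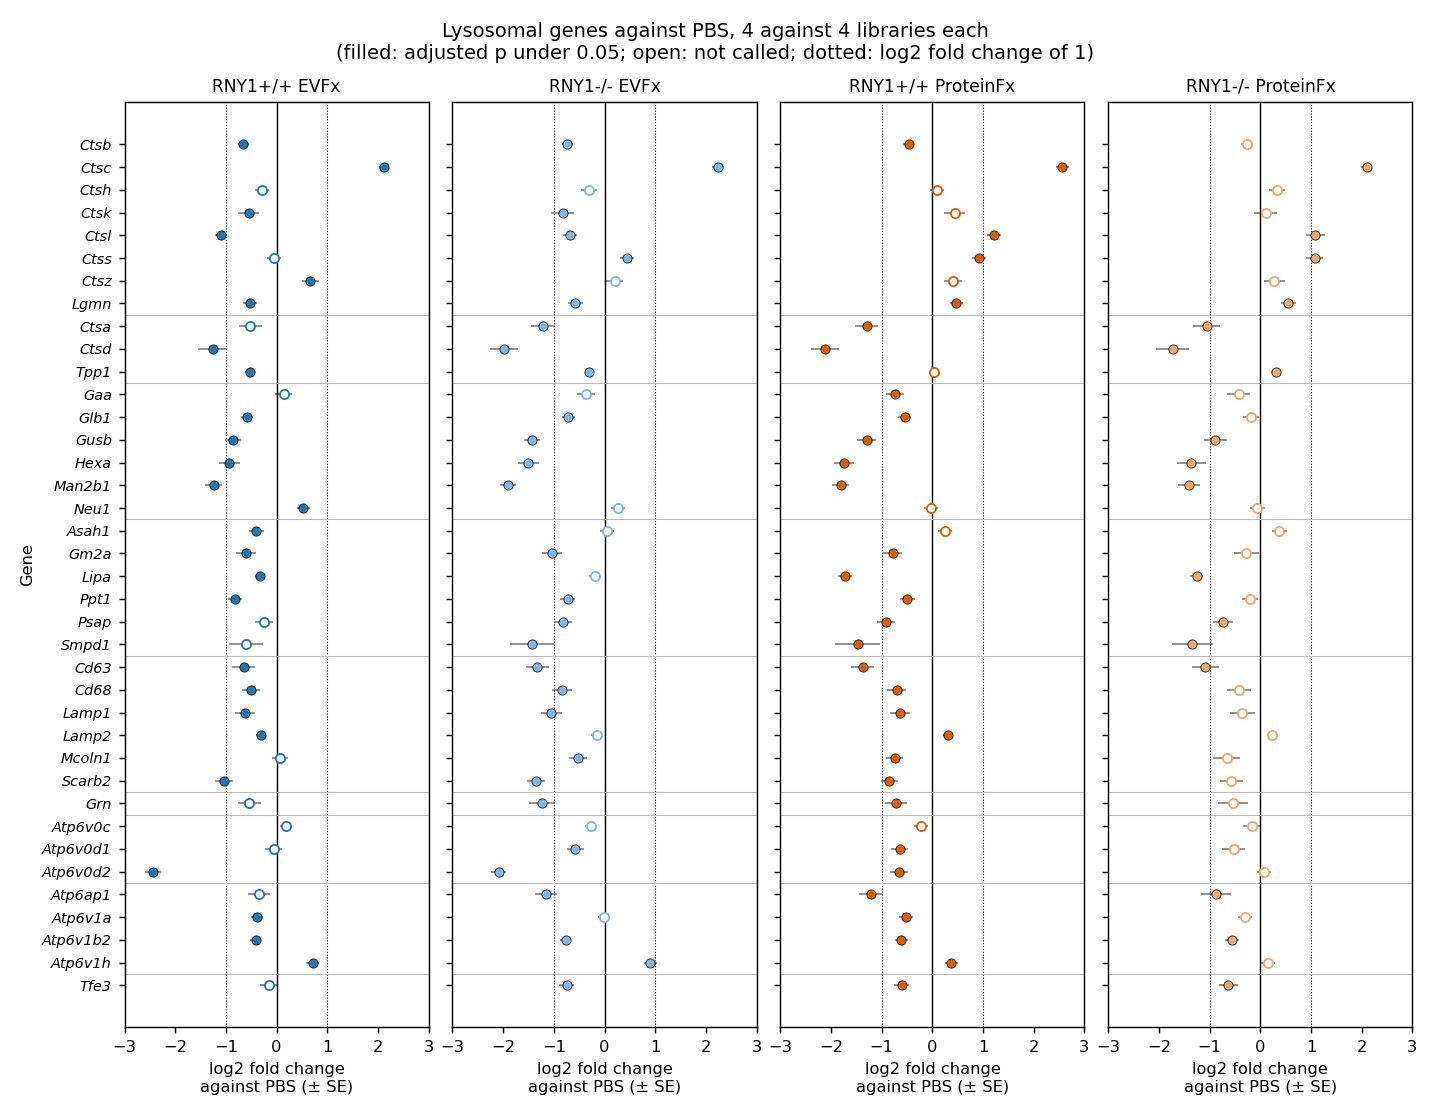
Log2 fold change against PBS (points, with standard error bars) of the 38 genes in each of the 4 treatments; filled points passed an adjusted p of 0.05 and dotted lines mark a log2 fold change of 1. Ctsc sits beyond 2 in every panel, while Ctsl changes side between the EVFx and the ProteinFx panels.

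Cysteine cathepsins, the endopeptidases and exopeptidases that degrade proteins in the lysosome, held all the DEGs that were higher than in PBS. Ctsc encodes cathepsin C, a dipeptidyl peptidase that activates granule serine proteases. Ctsc (ENSMUSG00000030560) measured 241, 239.9, 243 and 214 CPM in PBS, 929, 1003, 850.1 and 826 in RNY1+/+ EVFx, 1014, 972, 778 and 989 in RNY1-/- EVFx, 1172, 1306, 1038 and 1393 in RNY1+/+ ProteinFx, and 919.6, 939, 996 and 957 in RNY1-/- ProteinFx. No treated library came near the PBS range. The log2 fold changes against PBS were 2.12 (SE 0.10), 2.24 (SE 0.12), 2.56 (SE 0.13) and 2.09 (SE 0.11), with edgeR adjusted p-values of 5.3e-08, 9.8e-08, 2.2e-08 and 2.9e-07.

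Ctsl separated the fractions. This gene (ENSMUSG00000021477), for the broad endopeptidase cathepsin L, measured 2741, 2159, 3084 and 2759 CPM in PBS, 1196, 1079, 1080.0 and 1106 in RNY1+/+ EVFx, 1548, 1319, 1284 and 1528 in RNY1-/- EVFx, 5544, 4855, 5576 and 6209.9 in RNY1+/+ ProteinFx, and 4488, 4295, 6013 and 6759.8 in RNY1-/- ProteinFx. Every EVFx library was below and every ProteinFx library above the 4 PBS libraries. Ctsl fell by 1.09 (SE 0.12) and 0.68 (SE 0.13) on the log2 scale with RNY1+/+ and RNY1-/- EVFx (edgeR adjusted p = 3e-05 and 0.0014), and rose by 1.22 (SE 0.14) and 1.08 (SE 0.19) with the ProteinFx (adjusted p = 2.6e-05 and 0.002).

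Ctss, for the cathepsin S that trims the invariant chain in antigen presentation, measured 4035, 3584, 5407 and 4787 CPM in PBS and 3959, 3764, 3918 and 3593 in RNY1+/+ EVFx. Its values were 5643, 5019, 4709 and 5131 in RNY1-/- EVFx, 7835, 7654, 7175 and 7234 in RNY1+/+ ProteinFx, and 8199, 7525, 9762 and 9986 in RNY1-/- ProteinFx. The ProteinFx libraries were all above PBS, and the EVFx libraries overlapped it. Ctss (ENSMUSG00000038642) rose by 0.92 (SE 0.14) with RNY1+/+ ProteinFx and 1.07 (SE 0.17) with RNY1-/- ProteinFx in log2 (edgeR adjusted p = 0.0002 and 0.00097), and by 0.44 (SE 0.14, adjusted p = 0.018) with RNY1-/- EVFx, a call that did not hold without PBS libraries 1 and 2 (0.24, adjusted p = 0.15).

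Lgmn, for the asparaginyl endopeptidase legumain that processes other cathepsins, followed Ctsl at a smaller size. It fell by 0.53 (SE 0.14) and 0.57 (SE 0.15) with RNY1+/+ and RNY1-/- EVFx, from 1297 ± 199.9 CPM in PBS to 796 ± 118 and 739 ± 139.9 (SD, n = 4), and rose by 0.47 (SE 0.13) and 0.55 (SE 0.15) with the ProteinFx, to 1603 ± 113 and 1819.6 ± 260.4 CPM. Ctsk, for the collagen-degrading cathepsin K, was scarce, at 18.6, 10.5, 10.7 and 11.4 CPM in PBS against 7.01 to 8.70 in RNY1+/+ EVFx and 4.68 to 7.62 in RNY1-/- EVFx. Its EVFx log2 fold changes were -0.55 (SE 0.21) and -0.83 (SE 0.23) (edgeR adjusted p = 0.048 and 0.01), and the ProteinFx ones, 0.44 and 0.10, did not pass the test. The RNY1+/+ EVFx call of Ctsk was lost under 10 of 18 alternatives (down to -0.32, adjusted p up to 0.14).

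Ctsb, for cathepsin B, was lower in 3 comparisons, at 10027 ± 902 CPM in PBS, 5638 ± 328 and 5098 ± 362 after RNY1+/+ and RNY1-/- EVFx, 6431 ± 439 after RNY1+/+ ProteinFx and 7929.7 ± 787 after RNY1-/- ProteinFx (SD, n = 4). Its log2 fold changes were -0.65 (SE 0.11), -0.74 (SE 0.11), -0.47 (SE 0.11) and, not passing the test, -0.27 (SE 0.12). Ctsz, for the carboxypeptidase cathepsin Z, was called with RNY1+/+ EVFx, where it rose by 0.67 (SE 0.17, edgeR adjusted p = 0.0086), at 515, 497, 481 and 572 CPM against 452, 445, 251 and 320.3 in PBS. The other 3 fold changes of Ctsz were 0.20, 0.41 and 0.28, not called, and 0.62, 0.83 and 0.69, all called, with length and GC trends removed. Ctsh, for the aminopeptidase cathepsin H, gave -0.28, -0.31, 0.08 and 0.33, none past the test. Ctsf, below the level limit, measured 2.06 to 5.87 CPM in PBS and 0.398 to 3.02 in the treated libraries.

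Among the other proteases, Ctsd fell most. It encodes the aspartic protease cathepsin D, and Ctsd (ENSMUSG00000007891) measured 5825, 5878, 2090.2 and 3659 CPM in PBS, so that its PBS libraries differed from each other by more than several treated groups did. Its values were 1597, 1414, 1367 and 2062 in RNY1+/+ EVFx, 1017, 1079.8, 837 and 801 in RNY1-/- EVFx, 933, 810.2, 1000.4 and 847 in RNY1+/+ ProteinFx, and 1665, 1555, 859 and 977 in RNY1-/- ProteinFx. All 16 treated libraries lay below the lowest PBS library. The log2 fold changes were -1.26 (SE 0.28), -1.99 (SE 0.28), -2.11 (SE 0.27) and -1.73 (SE 0.32), and without PBS libraries 1 and 2 they were -0.68, -1.40, -1.54 and -1.14, all still called.

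Ctsa encodes the protective protein that shields beta-galactosidase and neuraminidase. It measured 525, 546, 232 and 364 CPM in PBS, 257, 247, 222 and 301 in RNY1+/+ EVFx, 165, 174, 141 and 129 in RNY1-/- EVFx, 158, 139.7, 173 and 136 in RNY1+/+ ProteinFx and 241, 234, 138 and 157 in RNY1-/- ProteinFx. PBS library 3 lay among the treated libraries. Its fold changes were -0.52 (not called), -1.22 (SE 0.23), -1.29 (SE 0.23) and -1.06 (SE 0.27). Tpp1, for a tripeptidyl peptidase, was tight in PBS (605, 608, 627 and 631 CPM) and lower in every EVFx library (363 to 457). Its log2 fold changes were -0.53 (SE 0.08) and -0.30 (SE 0.09) with EVFx, 0.02 with RNY1+/+ ProteinFx and 0.31 (SE 0.10, edgeR adjusted p = 0.035) with RNY1-/- ProteinFx. The last call was lost under 12 of 20 alternatives (adjusted p up to 0.24), and the RNY1-/- EVFx value became 0.12 with length and GC trends removed.

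**Figure D3:**
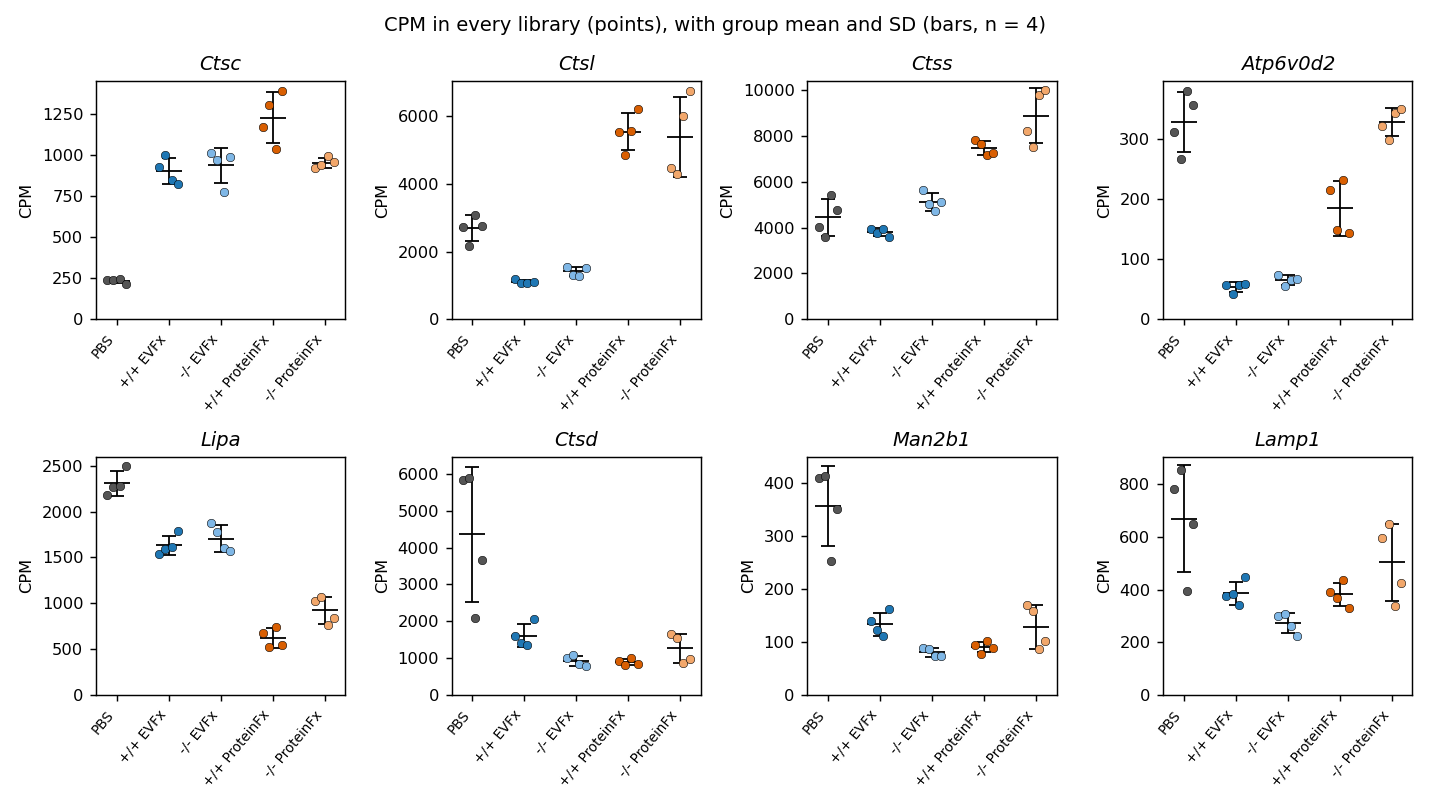
CPM of 8 genes in each library (points) with the group mean and SD (bars, n = 4); the axes start at 0. Ctsc in every treated group and Ctsl in both fractions lie apart from PBS, Atp6v0d2 overlaps PBS with RNY1-/- ProteinFx alone, and the PBS and RNY1-/- ProteinFx points of Ctsd, Man2b1 and Lamp1 spread widely.

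The glycosidases cleave sugars from glycoproteins and glycolipids, and 3 of the 6 (Man2b1, Hexa and Gusb) were lower in all 4 comparisons. Man2b1, for the lysosomal alpha-mannosidase, measured 409.7, 414, 252 and 352 CPM in PBS, 139, 123, 111 and 162 in RNY1+/+ EVFx, 88.3, 87.6, 72.9 and 73.4 in RNY1-/- EVFx, 93.6, 77.6, 102 and 88.8 in RNY1+/+ ProteinFx, and 170.2, 158, 86.5 and 101 in RNY1-/- ProteinFx. No treated library reached the PBS range. Man2b1 (ENSMUSG00000005142) had log2 fold changes of -1.24 (SE 0.17), -1.91 (SE 0.16), -1.81 (SE 0.16) and -1.41 (SE 0.22), with edgeR adjusted p-values of 0.00014, 2.6e-06, 4.2e-06 and 0.0011, and it stayed called under every alternative tried.

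Hexa, for the alpha subunit of hexosaminidase A, measured 792, 795, 389.5 and 621 CPM in PBS, 306, 289, 264 and 347 in RNY1+/+ EVFx, 217, 203, 197 and 159 in RNY1-/- EVFx, 182, 165, 195 and 148 in RNY1+/+ ProteinFx and 333, 309.6, 155 and 175 in RNY1-/- ProteinFx. Its fold changes were -0.93 (SE 0.20), -1.50 (SE 0.20), -1.75 (SE 0.20) and -1.36 (SE 0.28). Gusb, for beta-glucuronidase, measured 477, 512, 301 and 446 CPM in PBS, 202, 191, 207 and 243 in RNY1+/+ EVFx, 146, 149, 136 and 118 in RNY1-/- EVFx, 178, 126, 193 and 133 in RNY1+/+ ProteinFx and 288, 282, 145 and 183 in RNY1-/- ProteinFx, with fold changes of -0.86, -1.43, -1.30 and -0.89 (SE 0.16 to 0.23). Hexa and Gusb were thus below the lowest PBS library in all 16 treated libraries. Glb1, for beta-galactosidase, was lower with both EVFx and with RNY1+/+ ProteinFx (-0.59, -0.71 and -0.55, SE 0.12 to 0.13) and gave -0.19 with RNY1-/- ProteinFx, which did not pass. Gaa, for the acid alpha-glucosidase of glycogen, was called lower with RNY1+/+ ProteinFx (-0.73, SE 0.18), which became -0.12 (edgeR adjusted p = 0.36) with length and GC trends removed. Neu1, for the sialidase, was called higher with RNY1+/+ EVFx (0.53, SE 0.13) and, with trends removed, also in the other 3 comparisons (0.65, 0.34 and 0.31).

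Among lipid-degrading enzymes and their activators, the fractions differed most at Lipa. Lipa encodes the acid lipase that frees cholesterol and fatty acids from lipoprotein lipids. Lipa (ENSMUSG00000024781) measured 2182, 2270.4, 2275 and 2498 CPM in PBS, 1533, 1593, 1612 and 1784 in RNY1+/+ EVFx, 1879, 1774, 1599.6 and 1567 in RNY1-/- EVFx, 673, 519, 745 and 548 in RNY1+/+ ProteinFx, and 1025, 1065, 761 and 835 in RNY1-/- ProteinFx. ProteinFx libraries were below all EVFx libraries, and those below all PBS libraries. The log2 fold changes were -0.32 (SE 0.10, edgeR adjusted p = 0.018), -0.20 (SE 0.10, not called), -1.72 (SE 0.13, adjusted p = 1.1e-06) and -1.26 (SE 0.12, adjusted p = 3.2e-05).

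The saposin precursor Psap and the GM2 activator Gm2a help enzymes reach their lipids. Psap averaged 3722 ± 928 CPM in PBS, 2764 ± 405 and 1796 ± 172 after RNY1+/+ and RNY1-/- EVFx, and 1764 ± 186 and 2139 ± 458 after the ProteinFx (SD, n = 4), and was called lower in all but RNY1+/+ EVFx (-0.25, -0.81, -0.91 and -0.74). Gm2a measured 242, 233, 125 and 213 CPM in PBS and 90.2, 98.6, 70.1 and 75.6 in RNY1-/- EVFx, where it fell by 1.04 (SE 0.20), and its other changes were -0.60, -0.79 and, not called, -0.27. The Gm2a call with RNY1+/+ EVFx was lost under 7 of 18 alternatives (edgeR adjusted p up to 0.18). That of Psap with RNY1-/- ProteinFx was lost under 6 of 20 (adjusted p up to 0.21). Ppt1, for palmitoyl-protein thioesterase, was lower in 3 comparisons (-0.81, -0.73 and -0.49). Asah1, for acid ceramidase, was called lower with RNY1+/+ EVFx (-0.40, SE 0.14, edgeR adjusted p = 0.04), a call lost under 8 of 18 alternatives, and gave -0.27 (adjusted p = 0.031) with RNY1-/- EVFx when length and GC trends were removed.

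Smpd1, for acid sphingomyelinase, rested on few counts. It held 44, 55, 12 and 23 counts in PBS (9.02, 8.50, 2.74 and 4.09 CPM), 14 to 34 in RNY1+/+ EVFx, 5 to 20 in RNY1-/- EVFx and 3 to 20 in the ProteinFx groups. Its groups overlapped PBS through library 3. These Smpd1 values are given with no test, because the gene passed the level limit mainly through PBS, but it is 1 of the genes counted above as lower and as DEGs with RNY1-/- EVFx and with both ProteinFx.

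Of the membrane proteins, 5 of 6 were lower with RNY1+/+ EVFx, RNY1-/- EVFx and RNY1+/+ ProteinFx, beside 22.8%, 30.6% and 29.3% of all genes. With RNY1+/+ EVFx only the Scarb2 call held under every alternative. Lamp1, a major glycoprotein of the lysosomal membrane for which a promoter window is shown above, measured 781, 855, 394 and 649.9 CPM in PBS, 375, 382, 340.3 and 447 in RNY1+/+ EVFx, 299, 309, 264 and 224 in RNY1-/- EVFx, 391, 370.4, 437 and 331 in RNY1+/+ ProteinFx, and 598, 649.6, 340.0 and 427 in RNY1-/- ProteinFx. PBS library 3 lay within the range of 3 treated groups. Lamp1 (ENSMUSG00000031447) had log2 fold changes of -0.62 (SE 0.20), -1.05 (SE 0.21), -0.64 (SE 0.20) and, not called, -0.36 (SE 0.25), and without PBS libraries 1 and 2 the first and the third were -0.28 and -0.31 (edgeR adjusted p = 0.25 and 0.22). Lamp2, its close relative with a part in chaperone-mediated autophagy, was 749, 723, 841 and 803 CPM in PBS, 518 to 599 in RNY1+/+ EVFx, 525 to 636 in RNY1-/- EVFx, 841 to 895 in RNY1+/+ ProteinFx and 815 to 934 in RNY1-/- ProteinFx. Its fold changes were -0.30 (SE 0.10), -0.16, 0.31 (SE 0.10) and 0.23, and the RNY1+/+ ProteinFx value turned to -0.23 (not called) with length and GC trends removed. The Lamp2 call with RNY1+/+ EVFx was lost under 7 of 18 alternatives (edgeR adjusted p up to 0.21).

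Cd63, a tetraspanin of late endosomes that is also loaded onto exosomes, measured 1872, 1862, 827 and 1301 CPM in PBS, 819.9, 735, 744 and 1006 in RNY1+/+ EVFx, 513, 512, 496 and 464 in RNY1-/- EVFx, 530.3, 488, 578 and 414 in RNY1+/+ ProteinFx and 760.1, 857, 506 and 534 in RNY1-/- ProteinFx. Its fold changes were -0.65 (SE 0.23, a call lost under 8 of 18 alternatives, down to -0.21 without PBS libraries 1 and 2, edgeR adjusted p = 0.40), -1.32 (SE 0.22), -1.38 (SE 0.23) and -1.08 (SE 0.26). Scarb2, the receptor that carries glucocerebrosidase to the lysosome, measured 165, 172, 95.4 and 123 CPM in PBS, 61.4, 63.8, 49.9 and 64.9 in RNY1+/+ EVFx and 51.4, 46.9, 46.8 and 39.5 in RNY1-/- EVFx. All EVFx libraries were below PBS, with Scarb2 changes of -1.03 (SE 0.18) and -1.35 (SE 0.18), and the ProteinFx changes were -0.85 (SE 0.17) and, not called, -0.57. Cd68, a macrophage sialomucin, was lower by 0.51, 0.84 and 0.70 in the first 3 comparisons, and its change in RNY1-/- ProteinFx was -0.42, not called. The first Cd68 call was lost under 9 of 18 alternatives (down to -0.20, edgeR adjusted p up to 0.37).

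Mcoln1 encodes the lysosomal calcium channel that releases calcium for TFEB activation. It measured 54.3, 54.7, 32.2 and 49.5 CPM in PBS, 41.5, 40.5, 44.7 and 49.9 in RNY1+/+ EVFx, 28.6, 34.4, 24.1 and 25.6 in RNY1-/- EVFx, 27.4, 23.6, 26.9 and 23.6 in RNY1+/+ ProteinFx and 36.1, 38.8, 13.9 and 24.4 in RNY1-/- ProteinFx. Its log2 fold changes were 0.06 (SE 0.16), -0.52 (SE 0.17), -0.75 (SE 0.17) and -0.67 (SE 0.27), the second and the third called, and the second was -0.14 (not called) with length and GC trends removed. Grn, for the lysosomal and secreted regulator progranulin, was 2403, 2442, 1062 and 1812 CPM in PBS, 947 to 1359 in RNY1+/+ EVFx, 816, 832, 568 and 556 in RNY1-/- EVFx, 955 to 1153 in RNY1+/+ ProteinFx and 806 to 1751 in RNY1-/- ProteinFx. Grn was called with RNY1-/- EVFx (-1.24, SE 0.24) and RNY1+/+ ProteinFx (-0.72, SE 0.22), and the other values were -0.53 and -0.54. The RNY1+/+ ProteinFx call of Grn was lost under 3 of 18 alternatives (down to -0.22, edgeR adjusted p up to 0.22).

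Within the V-ATPase, which joins a catalytic sector that splits ATP to a membrane sector that carries protons, the isoforms of the d subunit differed. Atp6v0d2, the d isoform of osteoclasts and some macrophages, measured 311, 267, 380.0 and 356 CPM in PBS, 57.1, 41.9, 57.3 and 58.0 in RNY1+/+ EVFx, 73.4, 54.8, 65.5 and 67.3 in RNY1-/- EVFx, 216, 149, 232 and 143 in RNY1+/+ ProteinFx, and 322, 298, 344 and 350.2 in RNY1-/- ProteinFx. The EVFx libraries lay far below all others, RNY1+/+ ProteinFx lay between, and RNY1-/- ProteinFx overlapped PBS. Atp6v0d2 (ENSMUSG00000028238) had log2 fold changes of -2.44 (SE 0.15), -2.09 (SE 0.15), -0.66 (SE 0.17) and 0.07 (SE 0.14), with edgeR adjusted p-values of 3.5e-07, 6.5e-07, 0.0075 and 0.69.

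Atp6v0d1, the widely expressed d isoform, measured 98.4, 118, 61.8 and 89.2 CPM in PBS, 77.7, 78.9, 75.1 and 81.1 in RNY1+/+ EVFx, 53.3, 58.5, 50.7 and 46.8 in RNY1-/- EVFx, 48.8, 51.5, 57.3 and 51.5 in RNY1+/+ ProteinFx and 68.6, 82.4, 45.0 and 47.5 in RNY1-/- ProteinFx. Its fold changes were -0.06 (SE 0.16), -0.58 (SE 0.17), -0.65 (SE 0.17) and -0.53 (SE 0.22), of which the second and the third were called, and neither was without PBS libraries 1 and 2 (-0.30 and -0.39). The 7 osteoclast markers, of which 3 or 4 were at or under the floor in each group, summed to 56.7 to 74.6 CPM in PBS, 41.0 to 54.7 and 34.7 to 42.9 CPM in the EVFx groups and 33.1 to 57.3 CPM in the ProteinFx groups, and their part in the Atp6v0d2 change was not tested. Atp6v0c, the proton-carrying ring subunit, was not called against PBS (0.18, -0.27, -0.22 and -0.17).

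The catalytic-sector genes were less uniform. Atp6v1h, the regulatory H subunit, rose by 0.71 (SE 0.13) and 0.91 (SE 0.13) with RNY1+/+ and RNY1-/- EVFx, at 135, 147, 160.2 and 147 CPM and 158, 156, 171 and 159 CPM against 91.2, 86.8, 127 and 101 in PBS. Its changes with ProteinFx were 0.37 (SE 0.13, edgeR adjusted p = 0.025), which became -0.09 (not called) with length and GC trends removed, and 0.14. Atp6v1b2, the B subunit, was lower in all 4 comparisons (-0.42, -0.77, -0.61 and -0.56, SE 0.11 to 0.13), and Atp6v1a, the ATP-splitting A subunit, with RNY1+/+ EVFx and RNY1+/+ ProteinFx (-0.38 and -0.52, SE 0.12 and 0.13). The Atp6v1a call with RNY1+/+ EVFx was lost under 7 of 18 alternatives (down to -0.17, edgeR adjusted p up to 0.13). Atp6ap1, an accessory subunit for pump assembly, measured 268, 263, 121 and 218 CPM in PBS, 93.2, 93.8, 81.5 and 63.4 in RNY1-/- EVFx, 88.2, 70.0, 101 and 74.1 in RNY1+/+ ProteinFx and 156, 145, 78.1 and 76.1 in RNY1-/- ProteinFx, with changes of -1.15 (SE 0.22), -1.22 (SE 0.23) and -0.88 (SE 0.29), and gave -0.35 (not called) with RNY1+/+ EVFx at 141 to 176 CPM. The RNY1-/- ProteinFx call of Atp6ap1 was lost under 7 of 20 alternatives (down to -0.51, edgeR adjusted p up to 0.34).

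Of the transcription factors, Tfe3 was lower in 3 comparisons. Tfe3 (ENSMUSG00000000134) measured 70.7, 82.5, 48.5 and 65.5 CPM in PBS, 46.9, 48.8, 48.1 and 68.6 in RNY1+/+ EVFx, 36.2, 36.6, 32.3 and 29.6 in RNY1-/- EVFx, 37.5, 36.5, 39.5 and 42.3 in RNY1+/+ ProteinFx and 48.0, 52.0, 33.1 and 31.4 in RNY1-/- ProteinFx. The RNY1-/- EVFx and RNY1+/+ ProteinFx libraries were all below PBS. Its log2 fold changes were -0.16 (SE 0.17, not called), -0.75 (SE 0.15), -0.61 (SE 0.16) and -0.63 (SE 0.20, edgeR adjusted p = 0.03); without PBS libraries 1 and 2 the last 2 were -0.40 and -0.41 and not called. Tfeb, below the level limit, held 48, 49, 13 and 24 counts in PBS (9.84, 7.57, 2.97 and 4.27 CPM), 22, 22, 12 and 31 in RNY1+/+ EVFx, 7, 14, 9 and 8 in RNY1-/- EVFx, 4, 7, 4 and 6 in RNY1+/+ ProteinFx and 7, 14, 1 and 3 in RNY1-/- ProteinFx. Its 12 libraries of the last 3 groups were at or below 2.22 CPM, under the lowest PBS value of 2.97. These Tfeb values are given with no test because the gene entered the tests mainly through PBS. The 5 genes with the longer E-box form are given in the order Ctsa, Ctsd, Mcoln1, Atp6v0d1 and Atp6v1a. RNY1+/+ EVFx gave -0.52, -1.26, 0.06, -0.06 and -0.38 (Ctsd and Atp6v1a called). RNY1-/- EVFx gave -1.22, -1.99, -0.52, -0.58 and -0.01 (all called but Atp6v1a). RNY1+/+ ProteinFx gave -1.29, -2.11, -0.75, -0.65 and -0.52 (all called). RNY1-/- ProteinFx gave -1.06, -1.73, -0.67, -0.53 and -0.31 (Ctsa and Ctsd called). Medians of the set were -0.51, -0.73, -0.63 and -0.33, and a difference of the 5 from the rest was not tested.

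Fractions from wild-type mice were then compared directly, at doses that were not matched. Of 37 genes tested, 11 were higher and 17 lower after RNY1+/+ ProteinFx than after RNY1+/+ EVFx, beside 31.1% and 32.2% of all 10443 genes, with a median log2 fold change of -0.19. There were 4 DEGs, beside 13.5% of all genes. Ctsl (2.31, SE 0.10, edgeR adjusted p = 1.9e-10), Atp6v0d2 (1.79, SE 0.15, adjusted p = 2e-07) and Lgmn (1.01, SE 0.11, adjusted p = 1.5e-06) were higher with ProteinFx, and Lipa (-1.39, SE 0.11, adjusted p = 1e-07) was lower. None of these genes had overlapping libraries between the groups, but of the 37 genes only 10 overlapped. How many of all genes overlapped was not counted. Of the 8 genes for cysteine cathepsins and legumain, 6 were higher (Ctsl, Lgmn, Ctsk by 0.99, Ctss by 0.97, Ctsc by 0.45 and Ctsh by 0.37) and Ctsz was lower by 0.25, a sign that turned to 0.20 (edgeR adjusted p = 0.027) with length and GC trends removed. Of the 6 glycosidases 5 were lower, from -0.43 for Gusb to -0.87 for Gaa. Tfe3 (-0.45), Mcoln1 (-0.80), Atp6v0d1 (-0.58), Ctsd (-0.84) and Atp6ap1 (-0.86) were lower, while Lamp1 (-0.02, SE 0.10) did not pass. The Tfe3 call was lost under 1 of 16 alternatives (-0.09, edgeR adjusted p = 0.46). The correlation of the fold change with GC content was -0.48 over 10122 genes and -0.54 over the 37.

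The genotype of the mice that gave the EVFx came with small, broad differences. In RNY1-/- against RNY1+/+ EVFx, 7 of 37 genes were higher and 21 lower, beside 25.5% and 26.6% of the 10320 genes tested, with a median log2 fold change of -0.32 against 0.00 for all genes. No gene of the set was a DEG in edgeR or DESeq2, where 2.35% of all genes were DEGs in edgeR. None of the set passed the fold limit at an unadjusted p under 0.05 either. The lowest were Atp6ap1 (-0.80, SE 0.11; 63.4 to 93.8 against 141 to 176 CPM), Ctsd (-0.72, SE 0.13; 801 to 1079.8 against 1367 to 2062 CPM) and Grn (-0.70, SE 0.14; 556 to 832 against 947 to 1359 CPM), with edgeR adjusted p-values of 0.00024, 0.00078 and 0.0016. None of the 3 had overlapping groups, but of the 37 genes only 12 overlapped, and overlap over all genes was not counted. The highest were Ctss (0.50, SE 0.08), Asah1 (0.45, SE 0.08; 250.2 to 282 against 177 to 215 CPM) and Ctsl (0.42, SE 0.09), with adjusted p-values of 0.00046, 0.0006 and 0.0018. Tfe3 (-0.59), Mcoln1 (-0.57), Atp6v0d1 (-0.51) and Lamp1 (-0.43) were lower and Atp6v0d2 (0.36, SE 0.12, edgeR adjusted p = 0.025) was higher.

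These EVFx differences ran with GC content. The Spearman correlation of the fold change with transcript GC was -0.64 over 10019 genes and -0.66 over the 37, which all come from the same 8 libraries. With length and GC trends removed, 5 genes were higher and 14 lower, beside 1767 and 1676 of all 10019 genes, with a median of -0.08. Of the 21 lower calls 14 held, among them Atp6ap1 (-0.62), Lamp1 (-0.48), Ctsd (-0.42), Atp6v0d1 (-0.29) and Mcoln1 (-0.27), while Tfe3 (-0.22) and Grn (-0.29) did not pass. Of the 7 higher calls 5 held (Tpp1, Ctsl, Ctss, Atp6v1a and Asah1), and Atp6v0d2 (0.02) did not. The plot of the genotype effect by GC content shows both fractions.

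**Figure D4:**
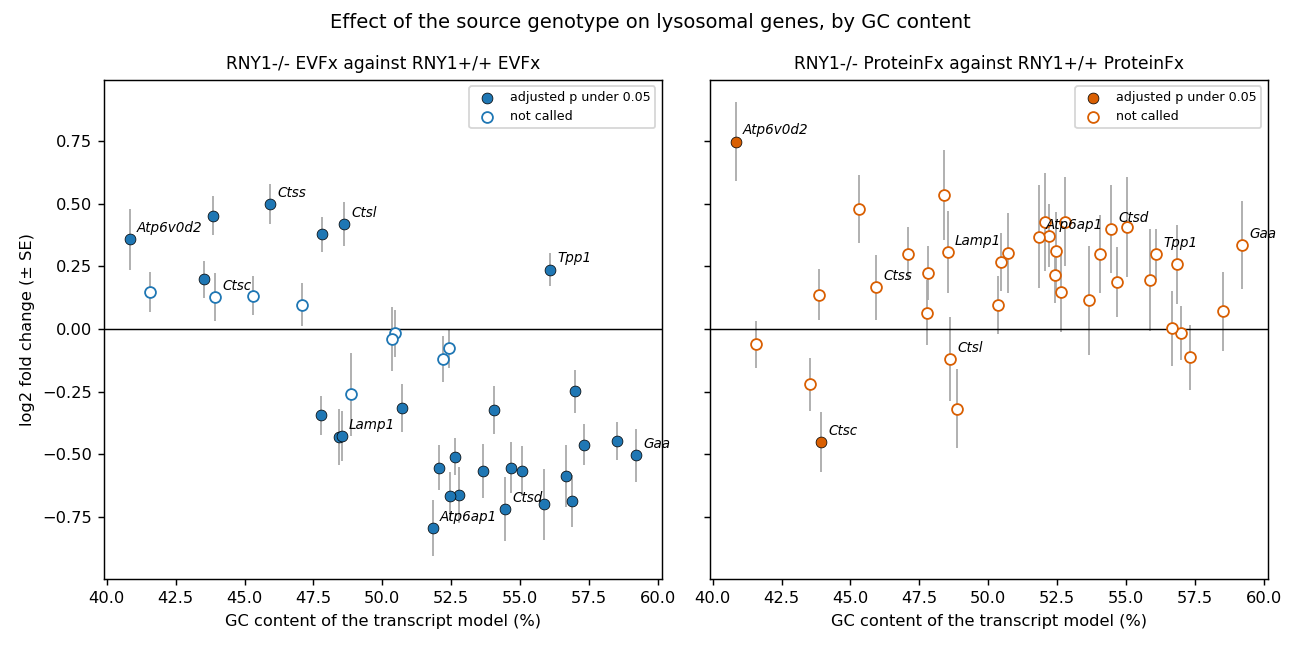
Log2 fold change (± SE) of RNY1-/- against RNY1+/+ for the 37 genes tested, by the GC content of the transcript model, for EVFx (left) and ProteinFx (right); filled points passed an adjusted p of 0.05. In EVFx the genes above 50% GC lie below 0, except Tpp1, whereas in ProteinFx only Atp6v0d2 and Ctsc are filled.

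With ProteinFx, 1 gene was higher and 1 lower in RNY1-/- against RNY1+/+, beside 2.2% and 3.37% of the 10468 genes tested, and the median was 0.22 against 0.02 for all genes. Atp6v0d2 was higher by 0.75 (SE 0.16, edgeR adjusted p = 0.014), with 298 to 350.2 CPM against 143 to 232 and no overlap. Of the 37 genes tested, 29 overlapped between these groups, and overlap over all genes was not counted. Ctsc was lower by 0.45 (SE 0.12, adjusted p = 0.044), with 919.6 to 996 against 1038 to 1393 CPM. The Ctsc call was lost under 10 of 18 alternatives (edgeR adjusted p up to 0.16), and that of Atp6v0d2 under 1. No gene of the set was a DEG in edgeR or DESeq2, where 1.82% of all genes were DEGs in edgeR. None of the set passed the fold limit at an unadjusted p under 0.05 either. Lamp1 (0.31, SE 0.16), Mcoln1 (0.11, SE 0.22), Atp6v0d1 (0.15, SE 0.16) and Tfe3 (0.00, SE 0.15) did not pass the test. The calls of this comparison changed with the RNY1-/- ProteinFx libraries used. Without libraries 3 and 4 of that group 21 genes were higher and 3 lower (1358 and 1545 of all 10481 genes). Without its libraries 1 and 2 they were 2 and 0 (383 and 483 of 10390). The part of the split of that group in these changes was not tested. With total counts the numbers were 3 higher and 0 lower, beside 388 and 273 of all 10468 genes.

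The difference between the genotype effects was tested as an interaction over the 16 treated libraries. It was positive (RNY1-/- against RNY1+/+ higher in ProteinFx than in EVFx) for 19 of 37 genes and negative for 3, beside 16.8% and 16.2% of all 10444 genes, with a median of 0.49 against 0.00. With total counts the split was 25 and 1, beside 2580 and 923 of all 10444 genes, and the median of all genes moved by 0.17. Atp6ap1 (1.17, SE 0.26), Ctsd (1.12, SE 0.24) and Man2b1 (1.09, SE 0.23) were the highest, with edgeR adjusted p-values of 0.0051, 0.0044 and 0.004, and Ctsc (-0.58, SE 0.16), Ctsl (-0.54, SE 0.20) and Atp6v1h (-0.42, SE 0.12) were the negative ones. Lamp1 (0.73), Mcoln1 (0.70), Atp6v0d1 (0.66) and Tfe3 (0.59) were positive, and Atp6v0d2 (0.39, SE 0.21) did not pass, so its genotype effects in the fractions were not shown to differ. The Mcoln1 call was lost under 13 of 24 alternatives (down to 0.34, edgeR adjusted p up to 0.22). That of Tfe3 was lost under 9 (down to 0.22, adjusted p up to 0.26) and that of Ctsl under 16. The correlation of this difference with GC content was 0.57 over 10119 genes and 0.52 over the 37. With length and GC trends removed 16 genes were positive and none negative, beside 1069 and 1106 of all 10119 genes, and the median was 0.34 against 0.02 for all genes.

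Genes of the lysosomal pathway outside the set were counted in 6 lists, to be read beside the 21.7% and 22.8%, 27.7% and 30.6%, 25.9% and 29.3%, and 16.7% and 19% of all genes called higher and lower in the 4 comparisons with PBS. Among 11 other V-ATPase subunits tested, 3 were higher and 1 lower with RNY1+/+ EVFx, 2 and 4 with RNY1-/- EVFx, 3 and 5 with RNY1+/+ ProteinFx and 1 and 5 with RNY1-/- ProteinFx, with medians of -0.10, -0.23, -0.32 and -0.48. Atp6v0a1, an a isoform of the membrane sector, was the lowest in each, at -1.91 (SE 0.23), -2.73 (SE 0.23), -2.03 (SE 0.26) and -1.66 (SE 0.24) from 168 CPM in PBS. Among 28 other lysosomal enzymes, 3 were higher and 12 lower, 6 and 17, 6 and 14, and 5 and 8 in the same order, with medians of -0.43, -0.62, -0.46 and -0.15. Acp2, a lysosomal acid phosphatase, was the highest of those averaging at least 10 CPM (1.25, 1.24, 1.59 and 1.05), and Sgsh, for sulfamidase (-2.45 and -2.74), and Fuca1, for the fucosidase (-1.81 and -1.29), were the lowest with the EVFx and the ProteinFx.

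Among 21 other lysosomal membrane and lipid transfer proteins, 3 were higher and 7 lower, 4 and 10, 4 and 7, and 2 and 5. Laptm5, a lysosomal protein of blood cells, was lowest in 3 of the 4 (-2.38, -2.27 and -1.56, from 452 CPM in PBS). The iron and manganese transporter Slc11a1 rose by 1.32 and 1.20 with RNY1+/+ and RNY1-/- EVFx. Among 27 regulators and targets of TFEB outside the lysosome, 4 were higher and 8 lower, 6 and 9, 6 and 12, and 3 and 6. The autophagy receptor Sqstm1 rose by 2.90 (SE 0.19) and 2.20 (SE 0.17) with RNY1+/+ and RNY1-/- EVFx, from 178 CPM in PBS to 1179 and 697, and averaged 119 CPM with RNY1+/+ ProteinFx. Mitf, another factor of the TFEB family, rose by 0.98 (SE 0.20) with RNY1+/+ ProteinFx.

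Of 12 genes of mannose-6-phosphate and other sorting, 2 were higher and 4 lower, 3 and 5, 3 and 5, and 1 and 3. M6pr, a mannose-6-phosphate receptor that carries hydrolases, was the highest each time (1.12, 1.25, 1.02 and 0.74), and Sort1, the sorting receptor sortilin, was the lowest (-1.76, -1.79, -4.24 and -3.05, from 45 CPM in PBS). Of 3 cystatins tested, which inhibit cysteine cathepsins, Cst7, an inhibitor that acts on cathepsin C, rose by 5.26 (SE 0.19), 4.77 (SE 0.23), 5.20 (SE 0.20) and 4.53 (SE 0.24), and the secreted inhibitor Cst3 fell by 0.76, 0.97, 0.72 and 0.54. Cst7 was also lower in RNY1-/- than in RNY1+/+ in both fractions, by 0.47 (SE 0.12) in EVFx and 0.64 (SE 0.15) in ProteinFx, with edgeR adjusted p-values of 0.0073 and 0.022. Between the genotypes the other V-ATPase subunits and other enzymes numbered 1 higher and 6 lower, and 4 and 12, in EVFx, and 0 and 0, and 1 and 1, in ProteinFx by edgeR. Of all genes, 25.5% were called higher and 26.6% lower in EVFx, and 2.2% and 3.37% in ProteinFx.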

How the data were processed

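RNA of 20 BMDM libraries was sequenced from the 3′ end with oligo(dT) primers and molecular identifiers. Per the labels and the study's methods, the authors' provider filtered reads with fastp 0.24.0, aligned them with STAR 2.7.11, removed duplicates by molecular identifier and counted strand-specifically on exons and 3′ UTRs with featureCounts (Subread 2.1.1), sharing reads that map to several places as fractions; the labels name build GRCm39. The authors deposited expected counts, not normalized, and CPM, which is the count over the library's total. Expected counts were rounded to whole numbers (28 of 38 genes had fractional counts in some library). A total of 92 spike-in rows were left out, and they held at most 124 counts in a library.

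Each comparison used 8 libraries, and the difference of genotype effects the 16 treated ones. Genes had to pass filterByExpr and average 3 CPM or more. The quasi-likelihood test of edgeR 4.0.16 in R 4.3.3 (glmQLFit, glmQLFTest) was run with TMM factors, with Benjamini-Hochberg adjustment over all genes tested; SEs were derived from the log2 fold change and the root of its F statistic. Counting error is one part of the spread, and replicate pairs differed by a mean chi-square of 2.30 to 34.8 per gene, so no library was a duplicate of another. Alternatives were DESeq2 1.42.0, scaling to Rab14, Arpc2 and Cltc, use of total counts, other filters, 1 fit of all libraries, removal of trends with transcript length and GC content (GENCODE models of GRCm38, natural splines with 4 degrees of freedom), a replicate block and leaving out each library. Leaving out pairs of libraries was added after the data were seen. The genes, the lists and the comparisons were chosen with earlier results of these data known. Per-library values are given for DEGs of the set, for up to 3 called genes per direction where there are fewer, and for Tfeb, Tfe3, Mcoln1, Lamp1, Atp6v0d1 and Atp6v0d2; of the other lists, up to 2 genes called highest and lowest are named.

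Replicate numbers were checked for pairing by the correlation of deviations of same-numbered libraries. All 4 pairs exceeded 0.1 only in RNY1-/- EVFx against PBS (0.13 to 0.38), where the block gave 4 genes higher and 29 lower, beside 3206 and 3514 of all 10727 genes. Figures were drawn with matplotlib 3.10.9, and python 3.11.15, numpy 2.4.6 and pandas 2.3.3 were used. The other experiments of the study were not analysed here.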

Additional observations from a re-analysis of the deposited data

Results flagged for a closer look

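In 7 of 190 combinations of a gene and a group of 4 libraries, 1 library stood apart by Dixon's criterion, which chance alone meets in about 1 in 20 groups. These were Atp6ap1 at 176 CPM (highest) in RNY1+/+ EVFx, Atp6v0d2 at 41.9 CPM (lowest) in RNY1+/+ EVFx, Atp6v1b2 at 375 CPM (highest) in RNY1+/+ ProteinFx, Ctsc at 214 CPM (lowest) in PBS, Ctsk at 18.6 CPM (highest) in PBS and 11.97 CPM (lowest) in RNY1+/+ ProteinFx, and Tfe3 at 68.6 CPM (highest) in RNY1+/+ EVFx.

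By edgeR's interaction test, a difference of the RNY1 genotype effect between the fractions was called for 22 genes of the set. Of these 19 were positive and 3 negative, beside 16.8% and 16.2% of all 10444 genes. Under every alternative, 10 of the positive and 0 of the negative calls held, and 13 and 0 with length and GC trends removed. Ctsl lost its call under 16 of 24 alternatives. As the log2 effect in ProteinFx minus that in EVFx, the proteases gave 0.94 for Ctsa, 1.12 for Ctsd, -0.58 for Ctsc and -0.54 for Ctsl. The glycosidases gave 0.84 for Gaa, 0.49 for Glb1, 0.98 for Gusb, 0.97 for Hexa and 1.09 for Man2b1, and the lipid activators 0.97 for Gm2a and 0.74 for Psap. Membrane proteins and progranulin gave 0.98 for Cd63, 0.62 for Cd68, 0.73 for Lamp1, 0.70 for Mcoln1, 0.62 for Scarb2 and 0.89 for Grn. The V-ATPase and Tfe3 gave 1.17 for Atp6ap1, 0.51 for Atp6v0c, 0.66 for Atp6v0d1, -0.42 for Atp6v1h and 0.59 for Tfe3. Their correlation with GC content is given with that comparison.

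Spike-in rows, which entered no comparison, reached 124 counts in a library.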

How the results depend on the processing

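Values under the alternatives were counted for the genes called in each reported comparison. Of these, 3045 kept their direction and their call, 290 kept the direction and lost the call, and 10 changed sign. All 10 changed with length and GC trends removed. Genes not called in a reported comparison were left out of these counts, though some, such as Ctsz and Neu1 above, gained a call. The 10 were Tpp1 in RNY1-/- EVFx (0.12) and Lamp2 (-0.23) and Atp6v1h (-0.095) in RNY1+/+ ProteinFx against PBS, Neu1 (0.13), Atp6v0c (0.046), Gaa (0.0020) and Atp6v1h (-0.070) between the EVFx genotypes, Ctsz (0.20) and Atp6v0c (0.13) between the fractions, and Atp6v0c (-0.013) in the difference of genotype effects. Of the counts, 369 stayed within 1.5 times the reported count and 51 did not; the cause was not tested.

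All-gene counts of the same fits are given in brackets. With trends removed, 5 genes were higher in RNY1-/- EVFx (2800 of 10390) and 9 in RNY1-/- ProteinFx (1766 of 10510) than in PBS. Between the ProteinFx genotypes 2 were higher (385 of 10132), and 0 were negative in the difference of genotype effects (1106 of 10119). With total counts, 3 genes were higher in RNY1+/+ ProteinFx than in PBS (1967 of 10832), 3 were higher and 0 lower between the ProteinFx genotypes (388 and 273 of 10468), and 1 was negative in the difference (923 of 10444). In 1 fit of all 20 libraries, 8 were higher in RNY1-/- ProteinFx than in PBS (2666 of 10856), 3 were higher between the ProteinFx genotypes (401 of 10472), and the difference gave 11 and 1 (977 and 1058 of 10444). Between the ProteinFx genotypes, DESeq2 gave 3 higher (268 of 10468), scaling to Rab14, Arpc2 and Cltc 2 higher and 0 lower (195 and 271 of 10468), and no filter 7 higher (458 of 27022).

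Leaving out pairs of libraries was chosen after seeing the data. Without PBS libraries 1 and 2, DEGs against PBS were 7 in RNY1-/- EVFx (1790 of all 10515 genes), 7 in RNY1+/+ ProteinFx (1669 of 10632) and 4 in RNY1-/- ProteinFx (908 of 10735), where 3 genes were lower (594 of all genes). Without PBS libraries 3 and 4, RNY1+/+ ProteinFx had 18 DEGs (3174 of all 10756 genes) and RNY1-/- ProteinFx 20 genes lower (2928 of 10813). Without RNY1-/- ProteinFx libraries 3 and 4, that group had 3 genes lower and 4 DEGs against PBS (657 and 919 of all 10934 genes). Against RNY1+/+ it then had 21 higher and 3 lower (1358 and 1545 of 10481), and 2 and 0 without its libraries 1 and 2 (383 and 483 of 10390).

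With 1 library left out at a time, genes lower than PBS were 13 to 28 with RNY1+/+ EVFx (13 without PBS 4 or RNY1+/+ EVFx 2, 14 without RNY1+/+ EVFx 1 or 3), and 8 to 20 with RNY1-/- ProteinFx (20 without PBS 3), with 5 to 12 DEGs (5 without PBS 2, 6 without RNY1-/- ProteinFx 4). Between the ProteinFx genotypes 0 to 6 were higher (6 without RNY1-/- ProteinFx 3) and 0 to 1 lower. The difference of genotype effects gave 12 to 23 positive (12 without RNY1-/- ProteinFx 1 or 2) and 1 to 5 negative.

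The replicate block, where same-numbered libraries were treated as pairs, gave 9 higher and 22 lower in RNY1-/- ProteinFx against PBS, beside 3126 and 3487 of all 10854 genes. Between the ProteinFx genotypes it gave 0 lower, beside 240 of all 10468 genes. Whether same-numbered libraries in these 2 comparisons were paired is not given in the labels. In RNY1-/- ProteinFx against PBS, 3 of the 4 same-numbered pairs correlated above 0.1 (range 0.02 to 0.64). In that comparison 3 libraries correlated best with their own number, so the reported counts, fitted without the block, may leave out a pairing. The block moved no other count by over 1.5 times. Depth limited Smpd1, Tfeb and Ctsf, which held under 60 counts in every library.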
